A study of Mus musculus with 18 samples.

Results

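The replication-dependent histone genes examined here are the mouse genes whose current symbol is H1f1 to H1f5 or starts with H2ac, H2bc, H3c or H4c followed by a digit. They were matched by Entrez GeneID and had at least 10 counts summed over 18 samples. Of 64 such symbols in RefSeq, 62 were in the count files and 59 passed the limit, out of 27179 genes counted. These were 5 linker histone (H1), 15 H2A, 15 H2B, 12 H3 and 12 H4 genes. The set was chosen by a readout of the same data, since higher counts in Sharpin mice were seen first. Values of Sharpin against WT samples, and counts of genes past the threshold between them, are therefore given as a description, and nothing is read from them. Just inside the limit were H2ac7 with 12 counts, H3c4 with 16 and H2bc7 with 17. Just outside were H2bc1 with 1 count and H2ac1 and H2ac10 with 0.

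RNA was sequenced from sorted CD69+ thymocytes with low or high surface MHC I, the later stage of positive selection being the MHC I high fraction, from 3 mice of each of 3 genotypes. WT mice were C57BL/6. Hoil mice (Hoil ΔCd4) delete Rbck1, the gene of HOIL-1, through a Cd4-Cre transgene, so that the loss is limited to the T lineage. Sharpin mice (Sharpin cpdm) carry the germline cpdm mutation of Sharpin, so that every cell, thymic stroma included, is mutant. This strain came from C57BL/Ka and had been crossed to C57BL/6 for few generations. Both proteins belong to LUBAC, the complex that builds linear ubiquitin chains. The sort discarded dead cells, cells with CD25 or CD44 and cells with markers of other lineages. The labels give no age, and all 3 WT mice had a female expression pattern while Hoil and Sharpin mice were each 1 female and 2 males by that pattern.

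Histone proteins package newly copied DNA, and most of them are made in S phase from clustered genes without introns. Their mRNAs usually end not in a poly(A) tail but in a short stem-loop, which the protein SLBP binds and which the U7 snRNP helps to cut. Transcription of the clusters depends on NPAT, a target of cyclin E and CDK2. Core histones H2A, H2B, H3 and H4 form the nucleosome, and H1 binds the linker DNA between nucleosomes. Thymocytes divide most before positive selection.

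All 59 genes lie in 3 blocks of the mouse genome (GRCm38, mm10). A block on chromosome 3 between 96219885 and 96270192 holds 10 of them. On chromosome 13, 22 lie between 21715711 and 22043658 and 27 between 23531044 and 23764412. The stem-loop was searched in GENCODE M21 transcripts on the transcript strand as GG, 2 bases of any kind, CTT, any base, T, any base, AG, 2 bases of any kind and CC. It was found in 42 of the 59 genes, against 0.621% of 21901 protein-coding genes. Of the 17 genes without a match, 11 have an annotated transcript that stops at the stop codon and so holds no sequence beyond it. The following sites, with the 16-base stem-loop in capitals and 5 bases on each side, are those of the most counted H1, H2A, H3 and H4 genes and of 2 genes called below, and they show one core in genes of different families beside cores seen in fewer genes. The sequence is 5′ to 3′.
H1f2: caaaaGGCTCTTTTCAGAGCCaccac
H2ac18: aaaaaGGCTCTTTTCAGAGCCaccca
H3c14: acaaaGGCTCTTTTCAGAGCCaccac
H4c9: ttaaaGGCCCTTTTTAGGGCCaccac
H3c3: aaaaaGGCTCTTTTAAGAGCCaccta
H4c2: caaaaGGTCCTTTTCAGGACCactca
The core of H1f2, H2ac18 and H3c14 is shared by 24 of the 42 genes. The core of H3c3 is shared by 5 genes, all of them H3 or H2B genes. Those of H4c9 and H4c2 are each found in 2 genes, all H4 genes, and 6 other H4 genes share a further one.

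The end of the annotated transcript matters here because the library kit (TruSeq RNA) selects mRNA, by its usual protocol through the poly(A) tail. For 22 genes an annotated transcript runs over 50 bases past the stem-loop, for H1f2 by 840 bases and for H3c14 by 1167. In 10 genes an annotated transcript has AATAAA, the poly(A) signal, in its last 50 bases, as has 65.7% of protein-coding genes. These 10 are H2bc21, H1f2, H3c14, H2ac8, H2bc6, H4c14, H4c1, H4c11, H2bc23 and H2bc22. H2bc21 combines AATAAA with a transcript of 2620 bases in which no stem-loop was matched. Many histone genes share sequence with a relative. In 29 genes more than 50% of all 75-base windows, the length of a read, also occur in a transcript of another gene on either strand. For H3c14, H2ac18, H2ac19, H2bc18 and H3c13 this holds for all windows, so a read from these transcripts may also match an overlapping or near-identical gene. How such reads were counted is not known, as the strand and multi-mapping settings are not given. No window of H2bc21, H1f1, H1f5 or H4c14 is shared.

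Promoters were taken from RefSeq for GRCm38.p6, from 250 bases before to 50 after the start, and 54 of the genes had one. TATAAA on either strand was in 32 of these (59.3%, against 15.7% of 27025 genes) and CCAAT on either strand in 46 (85.2%, against 41.1%). The stretches from 140 bases before to 20 after the start of the most counted H1 and H2A genes are shown with these matches in capitals. They lie at chr13:23738667-23738826 and chr3:96245357-96245516, both on the plus strand.
H1f2: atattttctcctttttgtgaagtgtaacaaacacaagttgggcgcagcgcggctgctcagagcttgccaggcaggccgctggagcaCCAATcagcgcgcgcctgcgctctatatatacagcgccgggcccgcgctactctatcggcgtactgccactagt
H2ac18: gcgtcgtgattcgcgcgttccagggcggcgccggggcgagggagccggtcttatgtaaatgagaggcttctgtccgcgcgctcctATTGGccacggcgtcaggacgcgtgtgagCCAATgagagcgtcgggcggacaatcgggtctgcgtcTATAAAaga
H1f2 has 1 CCAAT and no exact TATAAA in this stretch, but a tatatata lies between its CCAAT and the start. H2ac18 has CCAAT in both orientations. Its TATAAA lies after the annotated start, within the last 20 bases shown, and so not upstream of that start.

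Histone genes took few reads. They held between 412 and 1274 counts per sample, or 0.0032% to 0.00902% of the 10577966 to 16266128 counts of a sample. H2bc21, an H2B gene, alone held 30.0% of them, and with H1f2 and H4c9 the share was 48.0%. Only 12 genes had a median of at least 10 counts per sample, and 36 had no count in some sample. Per kilobase of counted length, H4c9 was highest (6.38 CPM per kb over all samples), followed by H2bc21 (5.95) and H1f2 (3.92). The filter for testing (at least 0.5 CPM in at least 3 samples) was passed by 33 genes, of which 10 passed only with the help of Sharpin samples. The other 26 are described by counts. Rbck1 was at 217 to 268 CPM in WT and at 0.271 to 8.94 CPM in Hoil samples, with the highest value in Hoil mouse 2 MHC I high. The Sharpin mRNA itself was at 66.4 to 77.9 CPM in Sharpin and at 85.9 to 97.3 CPM in WT samples. The 14 thymocyte genes, Cd3e, Cd4 and Cd8a among them, summed to 4904 to 8546 CPM. The erythroid genes summed to at most 1.76 CPM, the B cell genes to at most 7.2 CPM and the myeloid and dendritic genes to at most 35.8 CPM.

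The levels of all 59 genes summed to 35.9, 34 and 32.2 CPM in WT MHC I low and to 58.4, 59.4 and 52.8 CPM in WT MHC I high samples. In Hoil mice the sums were 36.8, 41 and 38.9 CPM in MHC I low and 53.4, 58.2 and 52.3 CPM in MHC I high samples. Sharpin samples had 46.8, 50.4 and 58 CPM in MHC I low and 69.8, 77.9 and 90.9 CPM in MHC I high cells. The MHC I high samples were thus above the MHC I low samples in every genotype, and the Sharpin samples above the WT samples in each fraction. A change in the share of cells in S phase and one in histone mRNA per cell cannot be told apart in these bulk samples.

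**Figure D1:**
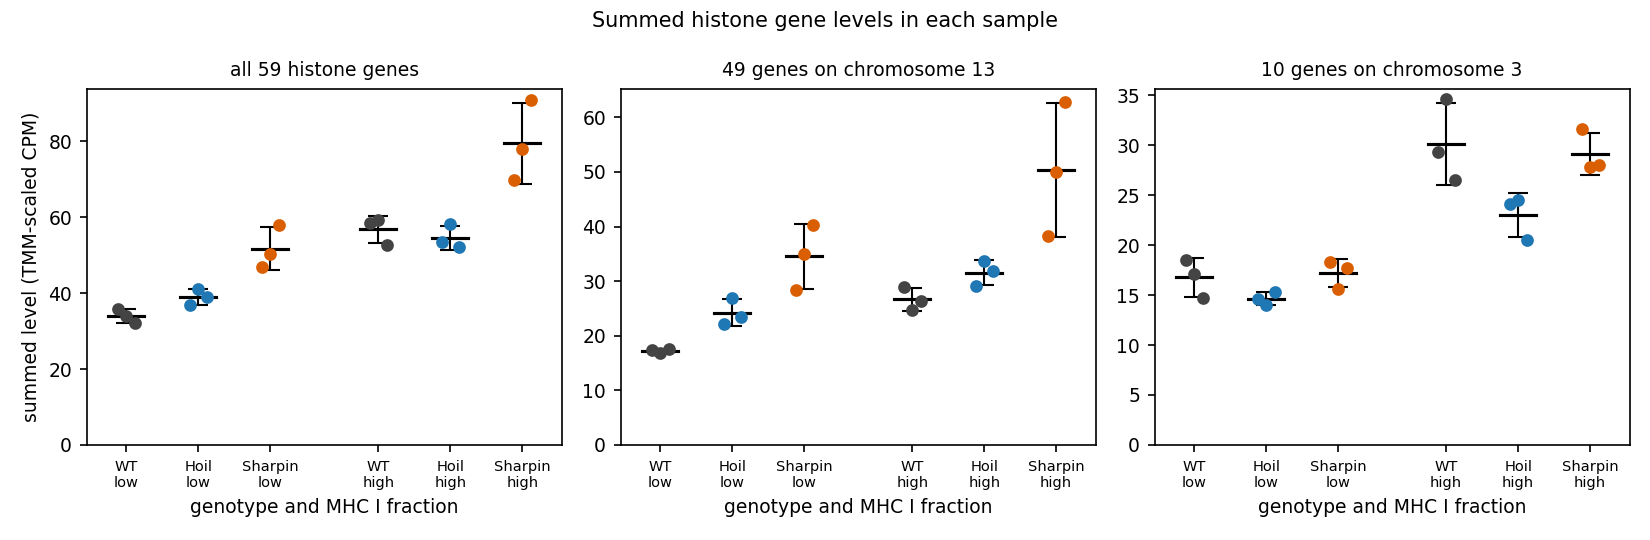
Summed levels (TMM-scaled CPM, linear axis from 0) of all 59 histone genes, of the 49 on chromosome 13 and of the 10 on chromosome 3 in each sample. Points are mice, bars the mean and SD of 3 mice per group. Sharpin points lie above WT points for all genes and for chromosome 13, while on chromosome 3 the Sharpin and WT groups overlap in both fractions.

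The first question was how histone genes changed as thymocytes matured. In WT mice 14 of the 33 tested genes were higher and 1 lower in MHC I high than in MHC I low cells (limma, adjusted p under 0.05), beside 27.5% of all 12798 genes called higher and 26.8% called lower. Their median log2 fold change was 0.61, against −0.0042 over all genes. The sum over all 59 genes was 1.67 times as high, with every family between 1.33 times (H1) and 2.22 times (H3).

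H2bc21 had the smallest p of the set. Its counts in WT mice 1, 2 and 3 were 203, 194 and 159 in MHC I low and 250, 401 and 291 in MHC I high cells. The levels were 12.6 ± 0.332 and 21.8 ± 2.9 CPM (SD, n = 3), and no MHC I high sample was as low as an MHC I low one. The log2 fold change was 0.72 (SE 0.102, limma adjusted p = 4.55e-07).
H3c14, the most counted H3 gene, went from 36, 22 and 11 counts to 46, 75 and 37. Its log2 fold change was 1.09 (SE 0.259, limma adjusted p = 0.000721), with all its windows shared as given above. H2bc4 went from 4, 9 and 1 counts to 22, 24 and 15, a log2 fold change of 2.16 (SE 0.39, limma adjusted p = 2.35e-05). H2bc11, another H2B gene, had a log2 fold change of 1.97 (SE 0.367, limma adjusted p = 3.55e-05) from 4, 1 and 5 to 10, 11 and 20 counts. The 3 WT mice moved the same way in all 3 of these genes.
H3c3, H4c2, H2ac11 and H2ac23 were also called higher in WT mice but had at most 3 counts in each WT MHC I low sample, so their fitted fold changes depend on the prior count. H3c3 had 5 counts over the 3 MHC I low samples and 25 over the MHC I high ones, a ratio of levels of 5.14 (95% counting interval 1.93 to 17.2). For H4c2 the counts were 3 and 19 (ratio 6.52, 1.92 to 34.4) and for H2ac11 they were 6 and 32 (ratio 5.49, 2.26 to 16.1). H2ac23 had 1 and 13 counts (ratio 13.4, 2.01 to 568). H2bc9 was called lower with 6 counts over the MHC I low samples against 2, at most 3 in any sample, and no fold is given for it. H4c2, H2ac23 and H2bc9 reached the filter for testing only with the help of Sharpin samples. H3c3 and H2ac11 reached 0.5 CPM in MHC I high samples only, and H2bc11 passed only with the help of such samples. These genes were thus let in by the fraction in which they were then called higher. The 14 calls and the median of 0.61 include them, so the filter itself tends to raise both. The call of H2bc9 was lost under 9 of 21 alternatives, among them without WT mouse 1 or WT mouse 3.

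Of the H1 genes, H1f4 rose, from 18, 8 and 9 to 27, 17 and 25 counts in WT mice (log2 fold change 1.05, SE 0.263, limma adjusted p = 0.00122). H1f2, the most counted H1 gene, had a log2 fold change of 0.33 (adjusted p = 0.0776) and H1f3 of 0.31 (adjusted p = 0.214), both from limma and neither called. H4c9, an H4 gene, had 49, 45 and 56 counts in MHC I low and 56, 63 and 54 in MHC I high cells and was not called (0.19, limma adjusted p = 0.449). The H4 gene H4c4 rose by 1.20 (limma adjusted p = 0.00221), and the H2A genes H2ac8 and H2ac18 by 1.26 (adjusted p = 0.00369) and 0.92 (adjusted p = 0.00715). H3c1 rose by 0.83 (limma adjusted p = 0.00819) and H2bc6 by 0.94 (limma adjusted p = 0.0426). H2bc8 and H2ac13 were not called, with log2 fold changes of −0.77 and 0.20, nor was H4c8 with 0.40.
These calls rested unevenly on the mice. Without WT mouse 3, 8 genes were called. Among those lost were H2ac8 (limma adjusted p = 0.455), H2ac18 (0.228), H4c4 (0.167), H3c1 (0.158), H2ac23 (0.0569) and H1f4 (0.0558). H2ac18 was also lost without WT mouse 1 and H3c1 without WT mouse 2. DESeq2 called 9 genes, all higher, and edgeR 10. H2bc6 was lost under 12 of 21 alternatives, up to an adjusted p of 0.711 without WT mouse 1.

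**Figure D2:**
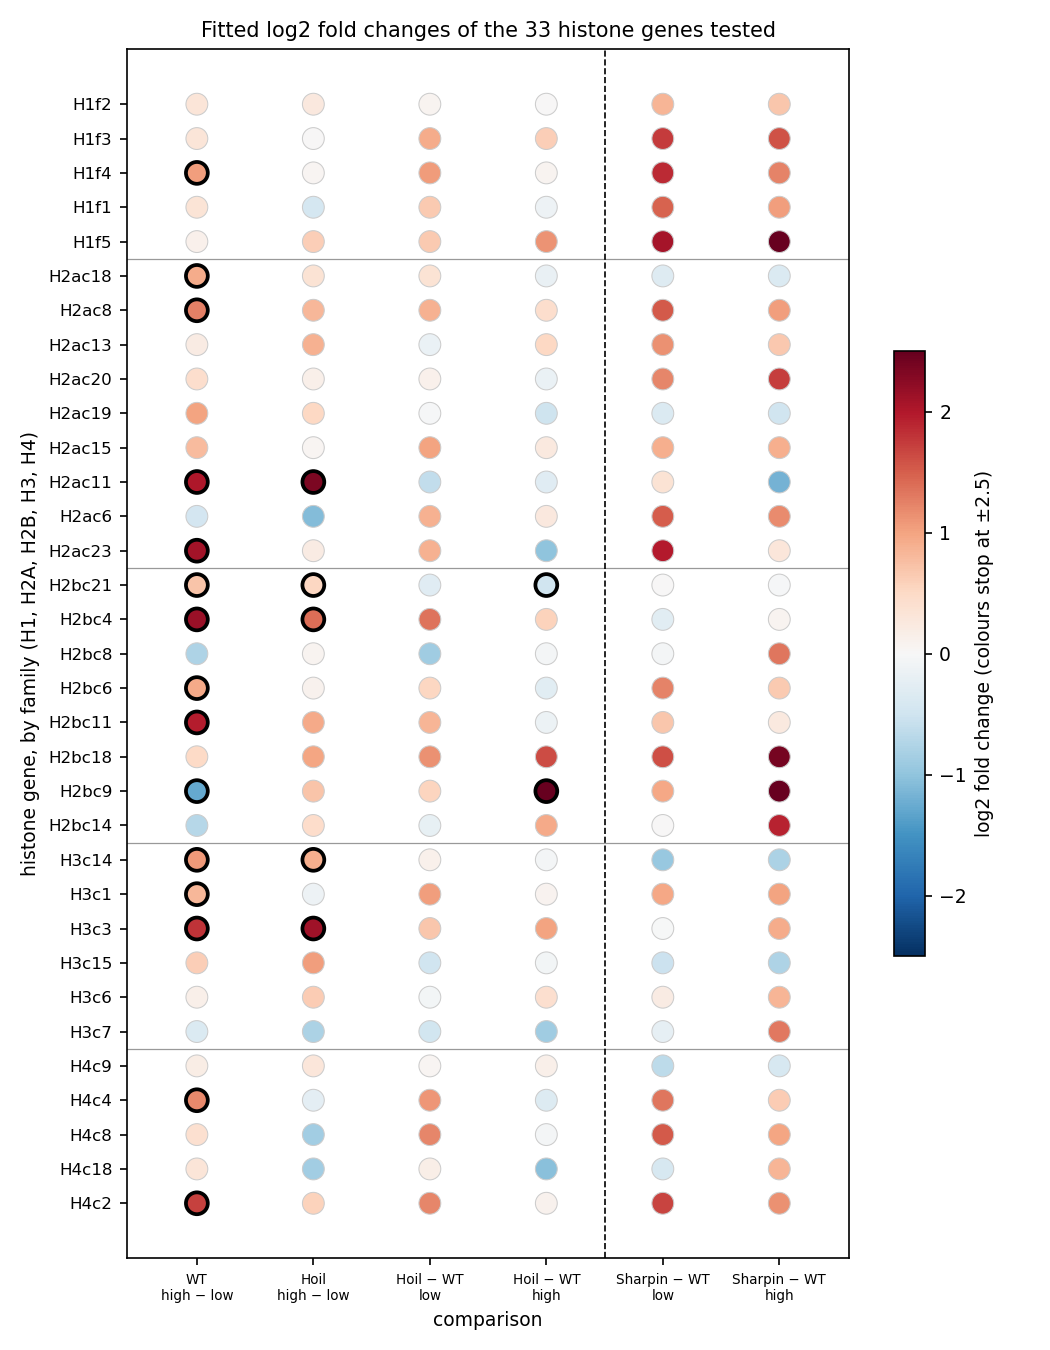
Fitted log2 fold changes of the 33 tested histone genes (rows, grouped by family) in 6 comparisons (columns). Colour gives the log2 fold change, red higher in the first named group, and black rings mark limma calls at an adjusted p under 0.05. Columns right of the dashed line compare the samples that chose the set and carry no rings. H2bc9 in WT had at most 3 counts in each sample of that comparison.

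In Hoil mice 5 of the 33 genes were called higher and 0 lower between the fractions, beside 23.5% and 21.7% of all genes. At an unadjusted p under 0.05 there were 6 genes by limma, and edgeR and DESeq2 each called 5 higher and 0 lower. The 5 were H2bc21, H3c14, H2bc4, H3c3 and H2ac11, and each of them was also called in WT mice. H2bc21 had 153, 108 and 147 counts in MHC I low and 238, 210 and 124 in MHC I high samples, which at their depths were 10.1 ± 0.896 and 15.3 ± 3.13 CPM. Its log2 fold change was 0.54 (SE 0.125, limma adjusted p = 0.000639). H3c14 rose by 0.91 (limma adjusted p = 0.0206) and H2bc4 by 1.39 (limma adjusted p = 0.0179), and both calls were lost without Hoil mouse 2 (adjusted p = 0.113 and 0.112) or Hoil mouse 3 (adjusted p = 0.14 and 0.288).
H3c3, with 1, 2 and 7 counts in MHC I low and 12, 22 and 9 in MHC I high samples, rose by 2.12 (limma adjusted p = 0.0011). H2ac11 had 3 counts over the MHC I low and 27 over the MHC I high samples, a ratio of 9.8 (95% counting interval 3.02 to 50.5). H3c3 and H2ac11 passed the filter through MHC I high samples only, as given above. No H1 gene was called in Hoil mice. H1f4 had 22, 19 and 29 counts in MHC I low and 22, 18 and 26 in MHC I high samples (log2 fold change 0.04, limma adjusted p = 0.929), and H1f3 had a log2 fold change of 0.0043 (limma adjusted p = 0.991).

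Whether the change between fractions differed between Hoil and WT mice was tested directly. None of the 33 genes was called by limma, edgeR or DESeq2, beside 0.297% of all genes higher and 0.102% lower. Unadjusted, 5 genes had a p under 0.05 by limma and 1 by edgeR. The median difference was −0.42, and 22 of 33 genes had a smaller fitted change in Hoil than in WT mice, for H1f4 by −1.002 (limma adjusted p = 0.38) and for H4c4 by −1.45 (limma adjusted p = 0.269). The genes called in WT but not in Hoil mice are therefore not shown to differ between the genotypes.

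The next comparison was of Hoil with WT mice within a fraction. In MHC I low cells 0 of 33 histone genes were called higher or lower by limma, edgeR or DESeq2, beside 0.422% and 0.563% of all genes by limma. Unadjusted, 6 genes had a p under 0.05 by limma and 7 by edgeR. No share of all genes at that threshold is given here, so these counts are not read as an excess. The fitted change was above 0 for 24 of the 33, with a median of 0.55. Leaving out 3 genes with at most 3 counts in each sample of both groups, the median over the other 30 was 0.602, or 0.362 with a floor of 3 counts for a group that had no more. The sum over all 59 genes did not overlap between the groups and was 1.14 times as high in Hoil mice, and without H2bc21 it was 1.34 times as high. H1f3 had 30, 34 and 40 counts in Hoil and 24, 16 and 18 in WT mice, a log2 fold change of 0.92 (limma adjusted p = 0.122). H1f4 had 22, 19 and 29 against 18, 8 and 9 (1.07, limma adjusted p = 0.168). In both genes every Hoil sample exceeded every WT sample in CPM, but neither passed the test.

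In MHC I high cells 1 gene was called higher and 1 lower, beside 3.84% and 2.81% of all genes, and both were H2B genes. H2bc21 was lower in Hoil mice, at 18.1, 15.9 and 11.9 CPM against 20.2, 25.2 and 20.1 CPM in WT mice, so that the groups did not overlap. The log2 fold change was −0.49 (SE 0.122, limma adjusted p = 0.0127), and it was lost without Hoil mouse 3 (adjusted p = 0.263), Hoil mouse 2 (0.0733) or WT mouse 3 (0.0698). H2bc9 had 10, 4 and 4 counts in Hoil and 0, 2 and 0 in WT mice, a ratio of 10.5 (95% counting interval 2.51 to 93.1, limma adjusted p = 0.0062), and was lost without WT mouse 1 (adjusted p = 0.148) or WT mouse 3 (adjusted p = 0.234). H2bc9 reached the filter only with the help of Sharpin samples, as given above. DESeq2 called H2bc21 and gave no adjusted p for H2bc9, while edgeR called both. The other 31 tested genes were not called, H1f2 with a log2 fold change of 0.01, H1f3 with 0.61 and H3c14 with −0.06.
The sum over all 59 genes was 0.961 times that of WT mice and overlapped between the groups. Without H2bc21 it was 1.12 times and without the 3 most counted genes 1.15 times that of WT mice, also with overlap. By position, the 49 genes on chromosome 13 summed to 29.2 to 33.7 CPM in Hoil and 24.8 to 29 CPM in WT mice, and the 10 on chromosome 3, which include H2bc21, to 20.5 to 24.5 and 26.5 to 34.6 CPM.

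Other genes of the cell cycle were compared in the same samples. In Hoil MHC I high cells 20 of 38 S-phase genes and 27 of 30 G2 and mitosis genes were called higher and 0 lower, beside 3.84% and 2.81% of all genes. Their sums were 1.28 and 1.57 times those of WT mice without overlap, beside 0.961 for the histone genes, or 1.12 without H2bc21, both with overlap. Mcm3, a subunit of the replicative helicase, was higher by 0.57 (limma adjusted p = 2.11e-05) and Ccnb2, a mitotic cyclin, by 0.85 (limma adjusted p = 0.000145).
Between the fractions of WT mice, 36 of the 38 S-phase genes and 29 of the 30 G2 and mitosis genes were called higher, and 1 of the latter lower, beside 27.5% and 26.8% of all genes. Clspn, needed for checkpoint signalling at replication forks, rose by 3.03 in WT and 3.59 in Hoil mice. The G2 and mitosis sum was 2.93 times as high in MHC I high as in MHC I low cells of WT mice and 4.1 times in Hoil mice, and the histone sum 1.67 and 1.4 times.

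**Figure D3:**
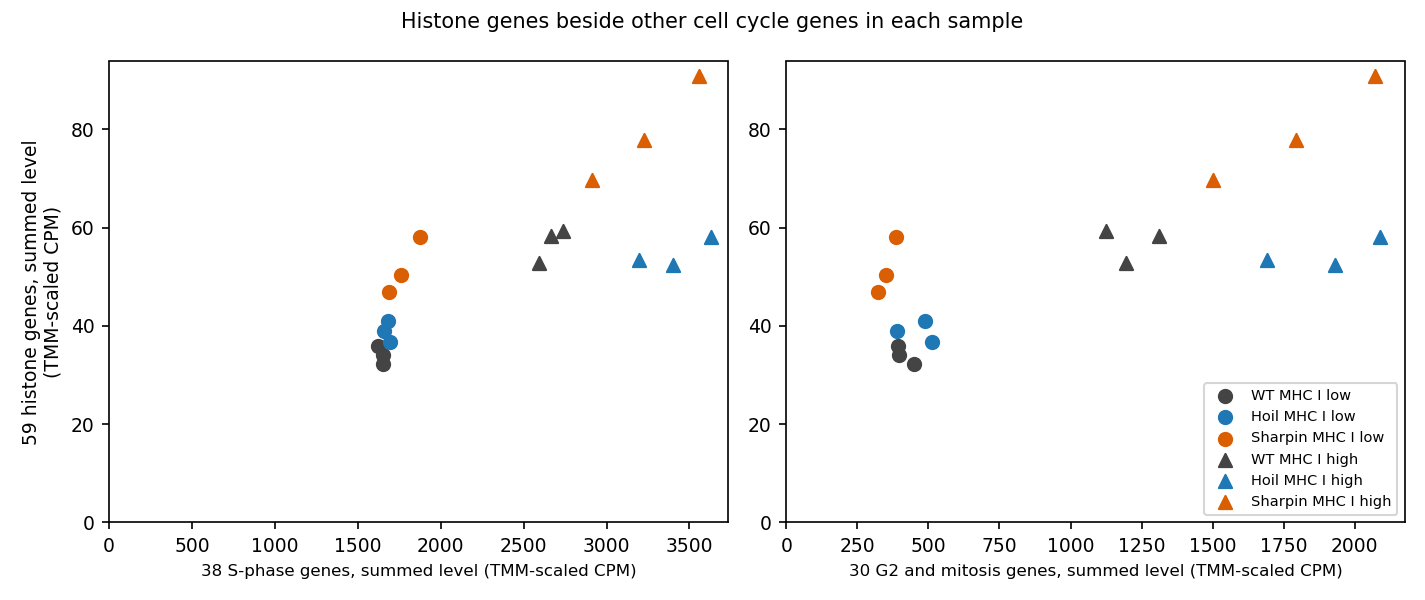
Summed level of the 59 histone genes (y axis) against that of 38 S-phase genes (left) and 30 G2 and mitosis genes (right), all in TMM-scaled CPM on linear axes from 0. Circles are MHC I low and triangles MHC I high samples. Hoil MHC I high samples lie to the right of WT MHC I high samples at a similar height, and Sharpin samples lie higher than WT samples of the same fraction.

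A list of 26 genes was drawn up for the transcription, 3′ end formation and decay of histone mRNA. Of these, 6 were called higher and 9 lower between the fractions of WT mice, beside 27.5% and 26.8% of all genes. In Hoil mice 5 were called higher and 6 lower, beside 23.5% and 21.7%. Against WT mice, 0 were called in either direction in Hoil MHC I low cells (3 with an unadjusted limma p under 0.05), and 3 higher and 0 lower in MHC I high cells, beside 3.84% and 2.81% of all genes. Slbp, the stem-loop binding protein, averaged 41.1 CPM in MHC I low and 62.3 CPM in MHC I high cells of WT mice, and 40.7 and 80.8 CPM in those of Hoil mice. It was higher in Hoil MHC I high cells by 0.41 (limma adjusted p = 0.000576), and its change between fractions was larger than in WT mice by 0.42 (limma adjusted p = 0.0441). Npat and Casp8ap2, which act at the histone locus body, were not called in any of the Hoil comparisons nor between the fractions of WT mice, with log2 fold changes between −0.0566 and 0.11. Lsm10 and Lsm11, parts of the U7 snRNP, were not called either. Hinfp, an activator of H4 genes, fell between the fractions by 0.24 in WT (limma adjusted p = 0.0058) and 0.27 in Hoil mice (limma adjusted p = 0.012). The cyclins Ccne1 and Ccne2 rose between the fractions of WT mice by 2.68 and 1.46, and the antiviral factor Zc3hav1 by 0.28. Zc3hav1 is counted with the 26 genes, although its place in a list for histone mRNA is doubtful.

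Among 22 histone chaperones, 7 were called higher and 0 lower in Hoil MHC I high cells, beside 3.84% and 2.81% of all genes, and 0 in MHC I low cells (2 with an unadjusted limma p under 0.05). Nasp, which stores soluble H3 and H4, was higher by 0.33 (limma adjusted p = 0.00163). Asf1b and Chaf1a, which bring H3 and H4 to replicated DNA, were higher by 0.58 (limma adjusted p = 0.019) and 0.54 (limma adjusted p = 0.0221). In WT mice Asf1b and Chaf1a rose between the fractions by 1.13 and 2.03, Tonsl by 0.95 and Mms22l by 0.64.
Histone variants that are made outside S phase or from polyadenylated mRNA had a sum of 675 to 839 CPM over 11 genes. Macroh2a1 alone held 372 to 440 CPM of it. The library kit by its usual protocol selects through the poly(A) tail, so this sum and that of the set are not compared as amounts of mRNA. H2ax, which marks DNA breaks, rose between the fractions by 0.86 in WT and 1.32 in Hoil mice, and that difference of 0.46 was called (limma adjusted p = 0.0441). H3-3a, listed under its older symbol H3f3a, fell by 0.19 in WT mice and H3-3b (H3f3b) by 1.24, both encoding the H3.3 variant. H3-3b had low levels, 2.97 to 4.29 CPM in WT MHC I low and 1.24 to 2.18 CPM in WT MHC I high samples. H3-3a was at 58.5 to 72.5 CPM in these samples. H2az1 was not called in these comparisons, while H2az2, H2aj and Cenpa rose in WT mice by 0.27, 0.43 and 0.79. H1f0, the linker histone of resting cells, fell by 1.01 in WT (limma adjusted p = 0.000111) and by 0.52 in Hoil mice (limma adjusted p = 0.0475).

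The Sharpin samples, on which the set was chosen, are described last. In MHC I low cells 8 histone genes were past the threshold higher and 1 lower, beside 5.31% and 6.92% of all genes. In MHC I high cells 8 were higher and 0 lower, beside 4.15% and 4.47%. The median log2 fold change was 0.91 in both fractions, against 0.0084 and 0.0030 over all genes. Of the 33 tested genes, 10 passed the filter only with the help of Sharpin samples. H1f5 is one of them and was past the threshold in both fractions. These counts and medians include such genes, so the filter itself tends to raise them.
The increase was unequal within the set. The 5 H1 genes summed to 12.4, 19.5 and 22.8 CPM in Sharpin MHC I low samples and to 7.17, 6.78 and 6.96 CPM in WT ones, 2.62 times as much. In MHC I high cells the H1 sum was 2.29 times as high, at 14.9, 21 and 27.8 against 9.86, 8.28 and 9.72 CPM. The H3 sum was 1.03 and 1.18 times as high and overlapped with WT in both fractions, and the H2B sum was 1.16 and 1.15 times as high without overlap. The H2A sum was 1.93 and 1.56 times as high without overlap, and the H4 sum 1.12 times with overlap and 1.24 times without.
H1f3, an H1 gene, had 42, 60 and 87 counts in Sharpin and 24, 16 and 18 in WT MHC I low samples, and 56, 81 and 103 against 24, 26 and 23 in MHC I high samples. The Sharpin samples lay above all WT samples in both fractions. H1f4 went from 0.789 ± 0.329 to 3.12 ± 0.486 CPM in MHC I low cells, and H1f2 from 4.37 ± 0.548 to 7.97 ± 2.52 CPM. H1f5, named after its values were seen, had 6 counts over the WT and 30 over the Sharpin MHC I low samples. H1f0, a linker histone outside the set, was also at higher levels in Sharpin than in WT samples. H1f0 was at 58.5, 72.6 and 98.5 CPM in Sharpin against 41.7, 30.7 and 35.9 CPM in WT MHC I low samples. For MHC I high samples these values were 31.4, 31.7 and 43 against 20.1, 16 and 17.7 CPM. Of 10 tested histone variants, 3 were past the threshold higher in the former fraction and 2 in the latter, with 0 lower.

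**Figure D4:**
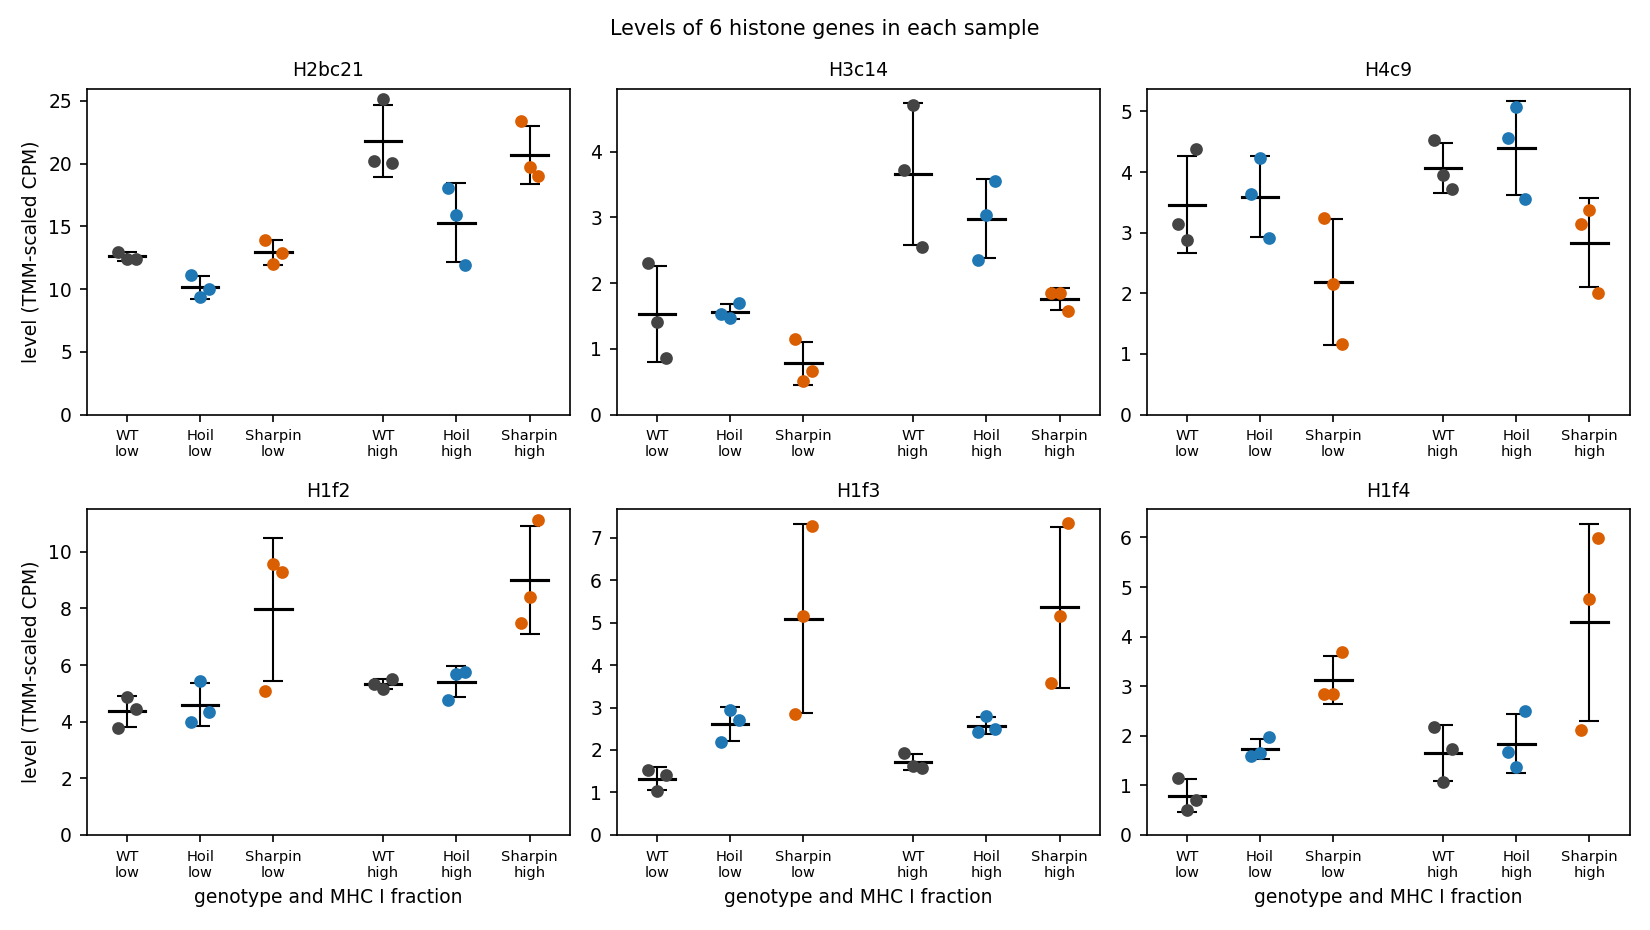
Levels (TMM-scaled CPM, linear axes from 0) of H2bc21, H3c14 and H4c9 (top) and of the H1 genes H1f2, H1f3 and H1f4 (bottom) in each sample. Points are mice, bars the mean and SD of 3 mice per group. The H1 genes are highest in Sharpin groups, and H2bc21 is higher in MHC I high than in MHC I low cells of each genotype.

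H2bc21, H3c14 and H4c9, the most counted H2B, H3 and H4 genes, did not share the increase. Other core histone genes were fitted higher in MHC I low cells, H3c1 by 0.96, H4c4 by 1.33 and H2ac8 by 1.54. Over the 33 tested genes the fitted change there was above 0 for 23 and below 0 for 10. In MHC I high cells it was above 0 for 26 and below 0 for 7. H2bc21 was at 13.9, 12 and 12.9 CPM in Sharpin and 13, 12.4 and 12.4 CPM in WT MHC I low samples, with a log2 fold change of 0.02, and at −0.03 in MHC I high cells. H3c14 had 17, 6 and 8 counts in Sharpin against 36, 22 and 11 in WT MHC I low samples (log2 fold change −0.94). H4c9 had 48, 25 and 14 counts against 49, 45 and 56 (log2 fold change −0.65).
By position, the 10 genes on chromosome 3 summed to 1.02 times the WT level in MHC I low and 0.967 times in MHC I high cells, overlapping in both. H2bc21 holds most of this sum, and of the 10 genes 5 had a higher and 5 a lower mean than in WT in each fraction. The 49 on chromosome 13 summed to 2.0 and 1.89 times the WT level without overlap, the block from 23531044 to 23764412, with all H1 genes but H1f5, to 2.33 and 2.08 times and the other block to 1.35 times with overlap and 1.53 times without. The 10 genes with AATAAA at an annotated end summed to 1.25 times the WT level without overlap and 1.1 times with overlap, and the other 49 genes to 1.88 and 1.81 times. H2bc21 is 1 of the 10, and without it the other 9 genes with AATAAA summed to 1.67 and 1.39 times the WT level, both without overlap. Hoil MHC I low samples were also unequal in these sums. Their H1 sum was 1.42 times and their chromosome 13 sum 1.41 times the WT level, both without overlap. The chromosome 3 sum was 0.873 times with overlap. H2bc21 held 10.1 of its 14.6 CPM in Hoil and 12.6 of its 16.8 CPM in WT mice. By their means, 6 of the 10 genes on chromosome 3 were higher and 4 lower in Hoil MHC I low samples. Genes with AATAAA summed to 0.914 times and the others to 1.45 times, both without overlap. Without H2bc21 those with AATAAA summed to 1.11 times with overlap.

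These splits by block and by AATAAA were chosen after the data were seen, as were the sums without H2bc21 or the 3 most counted genes, the floor of 3 counts and the sum without WT mouse 1. The Sharpin mice also differed among themselves. Mouse 1 had the lowest and mouse 3 the highest histone sum of the Sharpin mice in both fractions, and the same held for H1f3. In Sharpin MHC I high cells the S-phase genes summed to 1.21 times and the G2 and mitosis genes to 1.48 times the WT level. In MHC I low cells the S-phase sum was 1.08 times the WT level without overlap, with 8 of 38 genes past the threshold higher and 0 lower, beside 5.31% and 6.92% of all genes. There the G2 and mitosis sum was 0.857 times the WT level without overlap while the histone sum was 1.52 times as high. The 15 other RNAs without a poly(A) tail summed to 3.19 to 5.6 CPM in Sharpin and 6.02 to 17.4 CPM in WT MHC I low samples, 0.454 times as much without overlap, or 0.715 times without WT mouse 1, which held the 17.4 CPM. They overlapped in MHC I high samples, and the 123 small nucleolar and Cajal body RNAs overlapped between Sharpin and WT samples in each fraction. The genes of early thymocytes summed to 776 to 834 CPM in Sharpin and 907 to 927 CPM in WT MHC I low samples, and those of thymic stroma to 7.92 to 14 CPM over all samples. Whether poly(A) selection or the C57BL/Ka origin of the cpdm allele had a part in the histone levels was not tested. With the sex pattern as a covariate the median log2 fold changes were 0.98 and 1.02. All 3 WT mice had the female pattern, so this fit takes the sex difference from the mutant mice alone. Whether sex had a part in the histone levels was not tested.
Between the fractions of Sharpin mice the histone sum was 1.54 times as high in MHC I high cells, and 29 of the 33 tested genes had a fitted change above 0. Against Hoil samples, which the set was not chosen on but which are compared here with Sharpin samples that it was, the median fitted difference was 0.33 for the MHC I low fraction and 0.75 for the other. Both mutants were compared with the same WT samples.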

How the data were processed

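The authors aligned 75-base single-end reads from TruSeq RNA libraries to the mouse genome (mm10) with subread and counted them per Entrez gene with featureCounts. Versions, strand and multi-mapping settings are not given in the sources used here. The deposited values are raw counts, 10577966 to 16266128 per sample. Symbols came from RefSeq, and 1904 unmatched IDs held 0.655% of counts.

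The test covered genes that reached 0.5 CPM in 3 or more samples, without chromosome Y, Xist and predicted genes, which left 12798. log2 CPM (TMM, prior count 1) was fitted with limma 3.58.1 over all 18 samples, with sample weights and the mouse as a random block (correlation 0.224), since both fractions came from the same mice. Deviations of the 2 fractions of a mouse correlated at 0.0702 to 0.256. Empirical Bayes was trended and robust, and calls had a Benjamini-Hochberg adjusted p under 0.05. Shares of all genes are given for these limma calls only. Counts at an unadjusted p, by edgeR or DESeq2, or under other settings have no such share beside them. They are not read as more or fewer than among all genes. edgeR 4.0.16 and DESeq2 1.42.0 were alternatives, with other filters, scalings, blocks and mice left out. The methods were tested on simulated data, in which only genes with higher levels than most histone genes were changed. That test therefore does not cover calls on low counts. Ratios of summed counts have exact 95% intervals that cover counting error only.

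The members, lists and sequence features were chosen with earlier results of these data known. The 3 members of each family with most counts, and called members, are named, with H1f5 and H2bc18 named after their values were seen. The stem-loop pattern is wider than first planned, and the narrower one matched 40 members.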

Additional observations from a re-analysis of the deposited data

How the results depend on the processing

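No called gene and no Sharpin median changed sign under the alternatives run. Of 22 member calls in the tested comparisons, 10 were kept under every alternative that gave a value and 12 were lost under at least 1. Some sums close to the WT level did turn when 1 sample was left out. The Sharpin chromosome 3 sum went from 1.02 to 0.964 times WT in MHC I low cells. In MHC I high cells it went from 0.967 to 1.04 times, and the H3 sum in MHC I low cells from 1.03 to 0.928 times. Requiring 10 counts in every sample left 4 histone genes to test. The calls then numbered 1 for Hoil against WT MHC I high cells, 1 between the fractions of WT mice, 1 between those of Hoil mice and 2 in each Sharpin comparison, and the Sharpin medians were 0.42 (MHC I low) and 0.32 (MHC I high). DESeq2 called 1 gene for Hoil against WT MHC I high cells and 9 between the WT fractions. With no filter on low counts 8 genes were called between the Hoil fractions and the Sharpin MHC I low median was 0.60, and a prior count of 3 made that median 0.67. Sums over tested genes only averaged 36.7 CPM in Hoil MHC I low and 50.3 CPM in Hoil MHC I high samples. Leaving out each mouse gave 0 to 3 calls for Hoil against WT MHC I high cells, 8 to 15 between WT fractions, 3 to 5 between Hoil fractions, 3 to 9 and 3 to 10 for Sharpin MHC I low and high cells, and medians of 0.81 to 0.99 and 0.65 to 1.05 there. Nothing is read from the Sharpin counts. The 0 came without WT mouse 3, the 3 between Hoil fractions without Hoil mouse 2. For Sharpin the lowest counts came without Sharpin mouse 2 in MHC I low and without WT mouse 3 in MHC I high cells. H2bc18 was called for Hoil MHC I high cells with the sex pattern as a covariate (limma adjusted p = 0.0395) and without Hoil mouse 1 (0.0214). The pairing of fractions by mouse was also tried in other forms. Without a replicate block 14 genes were called between the WT fractions, with the mouse number as a fixed block 13 and with each mouse as a fixed block 14, and for Hoil fractions 5 in each form. Low counts limit what could be detected, since 26 of 59 genes could not be tested.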
